A study of Rattus norvegicus with 6 samples.

Results

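The IL-6 family of cytokines and its signalling genes were described in endothelial cells of rat skin with and without Il33. The group held 8 genes, chosen by name: the ligands Il6, Lif and Il11, the receptor chains Il6st, Lifr and Osmr, the transcription factor Stat3 and the feedback inhibitor Socs3. Each of the 8 had 1 probeset among the 15037 named genes of the arrays, and 7 of them were among the 11515 genes that passed a filter on dim genes and were tested. Lif was left out as dim, with a mean of 3.51 against a limit of 3.52. That limit lies below the median of the background probesets of each array (4.55 to 4.73), so the genes tested include some at background.

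Cytokines of this family signal through receptor complexes that share gp130, the protein of Il6st. Il6 binds its own receptor chain before gp130 joins, Lif pairs gp130 with the chain encoded by Lifr, and oncostatin M pairs it with the chain encoded by Osmr. JAK kinases bound to the complex phosphorylate STAT3, which enters the nucleus and induces Socs3, and the SOCS3 protein then binds gp130 and stops the signal. Endothelial cells can both secrete IL-6 and respond to it, and in skin IL-6 takes part in inflammation and wound repair.

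The cells came from abdominal skin (2 to 2.5 g) of 3 IL-33 knock-out rats (28, 27 and 52) and 3 wildtype rats (34, 45 and 37), all of the Sprague-Dawley strain. Each genotype held 2 females and 1 male, knockout 52 and wildtype 37. Skin was digested for 2 hours with collagenase I and DNase I, CD45-positive and then Lyve-1-positive cells were removed with magnetic beads, CD31-positive cells were kept, and 100 ng of their RNA was labelled. No treatment was given in either group, and the labels name neither the ages of the rats nor the kind of deletion. Values are log2 expression per probeset, a scale inferred rather than stated by the files, 1 array for each animal, and the number of arrays limits the precision.

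Il33 itself, the targeted gene, read 8.07, 8.37 and 9.82 in knockout 28, 27 and 52, against 13.86, 16.32 and 16.60 in wildtype 34, 45 and 37 (log2 difference -6.84, limma adjusted p = 0.0439). The call was lost without knockout 28 (adjusted p = 0.270), 27 (0.661) or 52 (0.0687) and without wildtype 45 (0.653) or 37 (0.0773). The array medians were 4.63 to 4.78. The 9 blood endothelial markers were above every background probeset in every array. Cdh5 read 19.62 to 19.70 in knockout and 19.62 to 19.71 in wildtype. It lay within 0.5 of the maximum of every array, where a difference can be hidden. Of the 9 markers, 7 had a higher mean in knockout, with a median difference of 0.30, and 0 were called. The mean of the list was 16.12 to 16.26 in knockout and 15.82 to 16.16 in wildtype. RNA of other cells was measured too. The mean of the 4 keratinocyte markers tested was 9.34 to 13.19 in knockout and 9.03 to 16.33 in wildtype, with the highest value in wildtype 34. That array also had the highest mean of the 6 fibroblast markers (8.04 to 9.64 in knockout, 8.09 to 11.58 in wildtype) and of the 4 leukocyte markers tested (6.22 to 7.05 in knockout, 5.89 to 8.24 in wildtype). Of these, 4 of 4 keratinocyte, 5 of 6 fibroblast and 3 of 4 leukocyte markers had a lower mean in knockout. Markers of 3 other sources had mostly higher means in knockout: 6 of 6 of pericytes and smooth muscle (median difference 0.45), 4 of 5 of lymphatic endothelium (0.71) and 3 of 3 of erythroid cells (1.68). Their mean levels were 11.05 to 11.80 in knockout and 10.00 to 11.98 in wildtype for pericytes, 7.98 to 9.81 and 6.11 to 9.54 for lymphatic endothelium, and 9.86 to 12.85 and 7.86 to 10.43 for erythroid cells. None of the markers of these 6 sources passed the test between genotypes. The mean of 8 spike-in controls was 8.82 to 10.26 in knockout and 8.91 to 10.42 in wildtype, higher in knockout 28 and wildtype 34 and 45 than in the other 3 arrays. In such sorted bulk samples, fewer cells of a type and less RNA per cell cannot be told apart.

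The DNA upstream of the 2 ligand genes Il6 and Il11 is shown because theirs were the only available windows that lay wholly outside the gene. Both sequences are the 250 bases before the RefSeq start in assembly GRCr8, written 5′ to 3′ along the gene's strand, with capitals for matches to an NF-kB motif or an AP-1 motif (TGANTCA), which were searched on both strands together with a STAT motif (TTCNNNGAA).
Il6, chr4:5894576-5894825, minus strand: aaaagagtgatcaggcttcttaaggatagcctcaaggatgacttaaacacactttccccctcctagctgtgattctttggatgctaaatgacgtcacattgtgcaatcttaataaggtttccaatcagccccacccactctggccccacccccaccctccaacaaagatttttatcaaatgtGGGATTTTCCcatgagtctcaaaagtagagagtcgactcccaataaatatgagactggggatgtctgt
Il11, chr1:78098372-78098621, plus strand: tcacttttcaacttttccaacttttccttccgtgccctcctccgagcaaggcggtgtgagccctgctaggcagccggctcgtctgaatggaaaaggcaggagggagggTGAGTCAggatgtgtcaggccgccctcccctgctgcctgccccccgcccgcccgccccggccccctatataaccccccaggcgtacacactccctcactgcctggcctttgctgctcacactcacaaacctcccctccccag
The Il6 sequence held 1 NF-kB match, 68 to 59 bases before the start, and the Il11 sequence 1 AP-1 match, 142 to 136 bases before it. Neither held a STAT match, and the matches did not overlap. Over all 33469 RefSeq windows of this length, 3.54% held the NF-kB motif, 6.34% the AP-1 motif and 7.67% the STAT motif. The table of promoters held 7 of the 8 genes, and the windows of 5 of these 7 lie partly or wholly within the gene and are not shown.

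Il6, the founding cytokine of the family, gave strong signal in endothelial cells of both genotypes. It read 18.22, 17.40 and 17.19 in knockout 28, 27 and 52, against 15.44, 17.63 and 17.13 in wildtype 34, 45 and 37. The groups overlapped, and the low value of wildtype 34 stood apart from the other 5 arrays. The means were 17.60 ± 0.54 in knockout and 16.73 ± 1.15 in wildtype (SD, n = 3 each), a log2 difference of 0.87 (SE 0.56, 95% interval -0.38 to 2.12) that did not pass the test (limma adjusted p = 0.999 over all genes tested). Without wildtype 34 the difference was 0.22, and without wildtype 45 it was 1.32. Wildtype 34 is the array with the keratinocyte marker mean of 16.33, and with that mean as a covariate the Il6 difference was 0.67. The part of these other cells in the Il6 signal was not tested. The highest Il6 value lay 1.54 below the maximum of its array.

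The other ligands were at background. Lif, the leukemia inhibitory factor, read 3.88, 3.59 and 3.34 in knockout and 3.19, 3.88 and 3.17 in wildtype animals. Il11, a ligand best known from fibroblasts and bone marrow stroma, read 4.02, 4.17 and 3.96 in knockout and 4.25, 4.56 and 4.27 in wildtype animals. Each of these values lay below the median of the 23 background probesets of its array, which was 4.55 to 4.73, so neither gene was detectable here. The 3 knockout values of Il11 were all below the 3 wildtype values, by as little as 0.08, and its difference of -0.31 did not pass (95% interval -1.0 to 0.38, limma adjusted p = 0.999). In the fit without the filter on dim genes, Lif differed by 0.19 (limma adjusted p = 0.999).

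**Figure D1:**
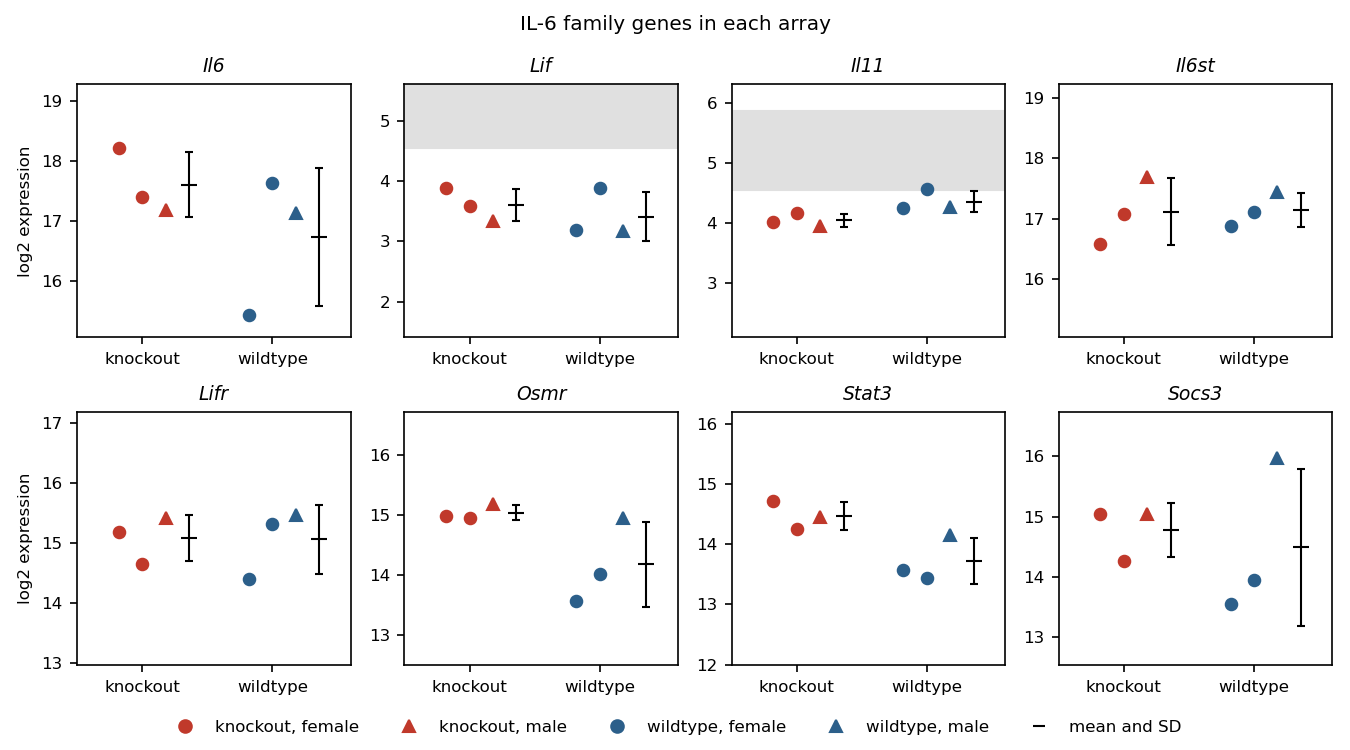
Log2 expression (vertical axes, each spanning the same number of log2 units around the gene's mean) of the 8 genes in the 3 knockout and 3 wildtype arrays; circles are females, triangles males, black bars the mean and SD, and the grey band runs from the lowest median to the highest value of the background probesets (4.55 to 5.87). Osmr and Stat3 lay higher in every knockout than in every wildtype array, Il6 was lowest in wildtype 34 (15.44) and Socs3 highest in wildtype 37 (15.97).

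The signal-transducing chain Il6st and the leukemia inhibitory factor receptor Lifr were well above background in all 6 arrays and had nearly equal means in the 2 genotypes. Il6st read 16.58, 17.08 and 17.69 in knockout 28, 27 and 52, against 16.87, 17.11 and 17.44 in wildtype 34, 45 and 37. Its difference was -0.023 (SE 0.38, 95% interval -0.87 to 0.82, limma adjusted p = 0.999). Lifr read 15.19, 14.66 and 15.41 in knockout, against 14.41, 15.31 and 15.47 in wildtype animals, with a difference of 0.023 (SE 0.39, 95% interval -0.86 to 0.90, limma adjusted p = 0.999). The groups overlapped for both genes. Without knockout 28 Il6st differed by 0.25, and without wildtype 34 Lifr differed by -0.30.

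Osmr, a receptor chain for oncostatin M, was higher in every knockout array than in every wildtype array, without passing the test. It read 14.98, 14.96 and 15.18 in knockout 28, 27 and 52, against 13.57, 14.02 and 14.95 in wildtype 34, 45 and 37. The knockout arrays lay within 0.22 of each other, and the lowest of them was 0.01 above wildtype 37. With each array centred on its median, the groups overlapped for Osmr. The means were 15.04 ± 0.12 in knockout and 14.18 ± 0.70 in wildtype (SD, n = 3 each), a log2 difference of 0.86 (SE 0.40, 95% interval -0.034 to 1.75, limma adjusted p = 0.999). The difference was 0.56 without wildtype 34 and 1.25 without wildtype 37. It was 0.55 with the keratinocyte mean as a covariate, 1.19 among the arrays of high spike-in signal and 0.12 among those of low signal. Knockout 28 was the only knockout array of high signal, and wildtype 37 the only wildtype array of low signal. The mean of the pericyte and smooth muscle markers was also lowest in wildtype 45 (10.00) and wildtype 34 (10.92), the arrays in which Osmr and Stat3 were lowest, and its part in both differences was not tested.

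Stat3, the transcription factor on which the receptors converge, showed the same order of groups. It read 14.71, 14.25 and 14.45 in knockout 28, 27 and 52, against 13.57, 13.43 and 14.15 in wildtype 34, 45 and 37. Every knockout array was above every wildtype array, with 0.10 between the nearest. The means were 14.47 ± 0.23 in knockout and 13.72 ± 0.38 in wildtype (SD, n = 3 each), a log2 difference of 0.75 (SE 0.34, 95% interval -0.0083 to 1.51, limma adjusted p = 0.999). Under the leave-outs of single arrays it stayed between 0.61 and 0.97. It was 1.21 among the arrays of high spike-in signal, with knockout 28 as the only knockout array. Among those of low signal it was 0.20, with wildtype 37 as the only wildtype array.

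Socs3, the STAT3-induced brake on gp130, varied within the wildtype more than between genotypes. It read 15.04, 14.26 and 15.04 in knockout 28, 27 and 52, against 13.54, 13.95 and 15.97 in wildtype 34, 45 and 37. The wildtype arrays held both its lowest values and its highest. The means were 14.78 ± 0.45 in knockout and 14.49 ± 1.30 in wildtype (SD, n = 3 each), a log2 difference of 0.29 (SE 0.59, 95% interval -1.04 to 1.62, limma adjusted p = 0.999). The difference was -0.18 without wildtype 34 and 1.03 without wildtype 37 (limma adjusted p = 0.555), the 2 wildtype arrays at either end of its range.

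**Figure D2:**
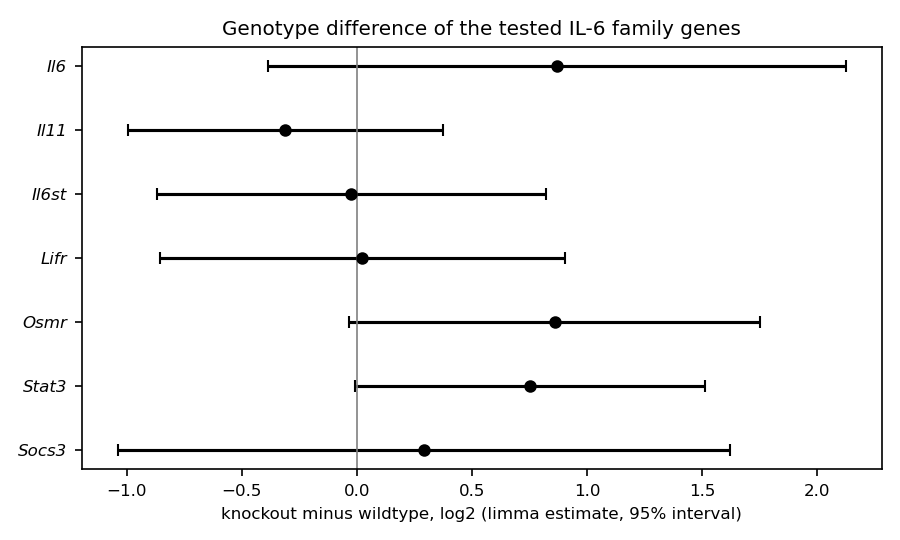
Log2 difference of knockout minus wildtype (horizontal axis) for the 7 genes tested, as the limma estimate (point) with its 95% interval (bar), 3 arrays in each genotype. Every interval includes 0; those of Osmr (-0.034 to 1.75) and Stat3 (-0.0083 to 1.51) do so most narrowly.

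Of the 7 genes tested, 0 were called between genotypes by limma at an adjusted p of 0.05, and 0 had an unadjusted p under 0.05, beside 1.97% of all genes tested (227). The second count depended on the setting. It was 2, Osmr and Stat3, with sex as a covariate (473 of all genes), with array weights (537), in females only (620) and without the filter on dim genes (335), and 3, with Socs3, without wildtype 37 (967). It was 1 after a second quantile normalization (Osmr, 302 of all genes), with the unmoderated statistic (Stat3, 312) and without wildtype 45 (Il6, 157). It was 0 in the other 10 alternatives. The adjusted p of these genes was at least 0.501 in all of them. Over all genes tested, 0.00868% were called, a single gene, Il33. Knockout and wildtype arrays did not overlap for 3 of the 7, Osmr and Stat3 higher and Il11 lower, where 6.25% of all genes tested did not overlap. The higher direction held 3.36% and the lower 2.89% of all genes. Il11 lay below the background median in every array, so its lack of overlap shows no change in expression. With the filter at the 50th percentile, which left Il11 out, 2 of 6 did not overlap, beside 475 of 8133 genes. With each array centred on its median, 2 of the 7 did not overlap, beside 677 of 11513 genes, and Osmr was no longer among them. Of the 7, 5 had a higher mean in knockout, and the median difference was 0.29, beside 0.037 over all genes tested. The lowest value of 4 of the genes (Il6, Lifr, Osmr and Socs3) was in wildtype 34, and the share over all genes was not counted. Il6 and Socs3 varied most among the members, with ranges of 2.78 and 2.43 over the 6 arrays, and their SDs over the arrays were larger than those of 94.9% and 93.6% of the genes tested.

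**Figure D3:**
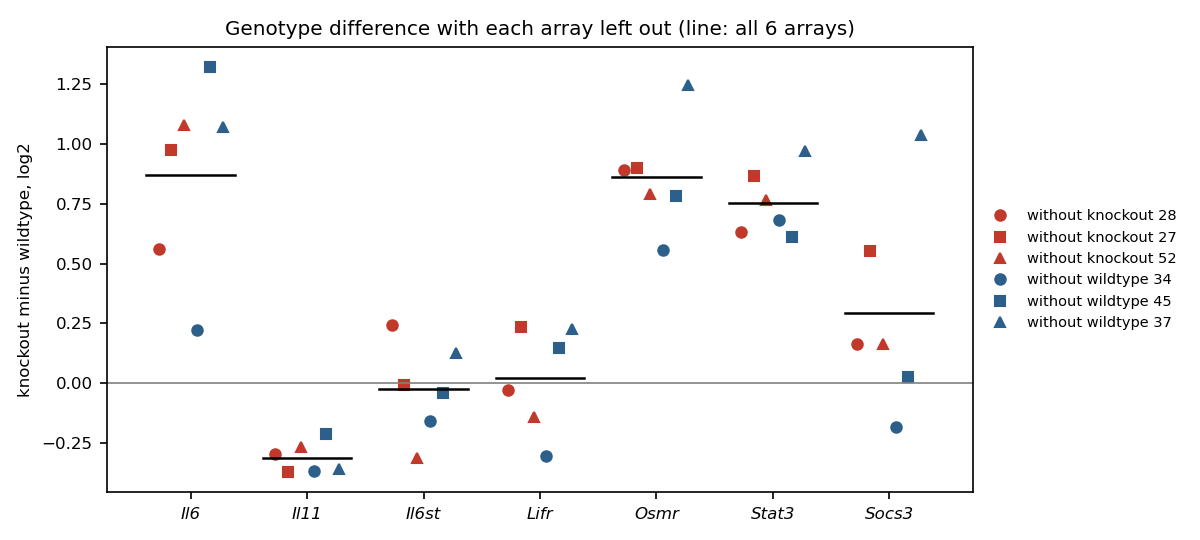
Log2 difference of knockout minus wildtype (vertical axis) for the 7 genes tested, recomputed with each of the 6 arrays left out in turn (symbols; red where a knockout and blue where a wildtype array was left out); the black line is the value with all 6 arrays. Osmr and Stat3 stayed above 0 throughout, Il6 ranged between 0.22 and 1.32, and Socs3 was 1.03 without wildtype 37 and -0.18 without wildtype 34.

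Sex was the other labelled difference between the animals and was examined with genotype in the model. Socs3 was 15.97 in wildtype 37, above all 4 females, and 15.04 in knockout 52, above 3 of the females and equal to knockout 28. Its male minus female difference was 1.31 (SE 0.46, 95% interval 0.27 to 2.34, limma adjusted p = 0.192), so it did not pass over all genes. It was 0.39 without wildtype 37 and 2.22 without knockout 52, where 1 male remains. Of the 7 genes tested, Socs3 alone had an unadjusted p under 0.05 for sex, beside 18.7% of all genes tested. Il6st read 17.69 and 17.44 in the males and 16.58 to 17.11 in the females, with a difference of 0.66 (limma adjusted p = 0.315). Lifr read 15.41 and 15.47 in the males and 14.41 to 15.31 in the females, with a difference of 0.55 (limma adjusted p = 0.446). The share of all genes without overlap between the sexes was not counted, so the lack of overlap in Il6st and Lifr has no value to stand beside. Osmr differed by 0.68, Stat3 by 0.31, Il11 by -0.14 and Il6 by -0.013 between the sexes, none of which passed. The median over the 7 genes was 0.55 beside 0.18 over all genes tested. With the filter at the 50th percentile, which kept 6 of the 7, the median over all genes was 0.36. With the main filter 3 genes were called between the sexes (0.0261% of those tested), and no gene of the family was among them. They were Ddx3y and Eif2s3y of the Y chromosome and the lymphatic chemokine Ccl21, named after their values were seen. The number was 66 without knockout 27 and 29 with each array centred on its median, and no gene of the family passed under any of the 11 alternatives tried for sex. Both male arrays had low spike-in signal, and with that signal as a block the Socs3 difference was 1.42. A second quantile normalization moved the median over all genes between the sexes to 0.061 and gave 0.93 for Socs3, 0.45 for Il6st, 0.24 for Osmr and 0.18 for Lifr.

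In the male pair, Il6, Osmr, Stat3 and Socs3 differed by 0.06, 0.23, 0.30 and -0.93 between knockout and wildtype. Within the females, with 2 animals in each genotype, the same differences were 1.27, 1.18, 0.98 and 0.91. Socs3 thus had opposite signs in the sexes: the knockout male was below the wildtype male, and both knockout females were above both wildtype females. In females only, 3904 of the 11515 genes tested did not overlap between genotypes. Socs3 also had opposite signs by spike-in signal, with -1.32 among the arrays of low signal, which include both males, and 1.30 among those of high signal. The low side held wildtype 37 as its only wildtype array, and the high side knockout 28 as its only knockout array. The part of sex and that of the spike-in split were thus not separated. Il6st (0.25 in males, -0.16 in females) and Lifr (-0.06 in males, 0.07 in females) had opposite signs as well, with overlapping females. The interaction, the male minus the female difference of knockout minus wildtype, was -1.84 for Socs3 (SE 0.78, limma adjusted p = 0.999), and 0 of the 11515 genes passed that test. The male value of each genotype rests on 1 animal.

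**Figure D4:**
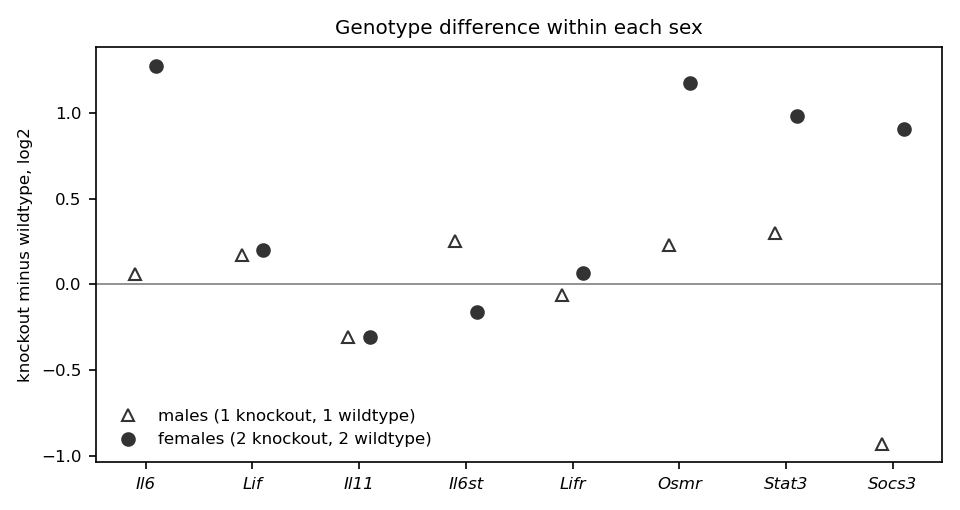
Log2 difference of knockout minus wildtype (vertical axis) for the 8 genes, within the males (open triangles, 1 animal in each genotype) and within the females (filled circles, 2 animals in each). For Socs3 the male value is -0.93 and the female value 0.91; Il11 has the same value of -0.31 in each.

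The other genes of the pathway were read from lists chosen with earlier results of these data known, and 0 of their 45 tested members were called in either direction. Of 8 other ligands listed, 4 had a named probeset and 2 were tested. Osm, which encodes a ligand of the Osmr chain, and Ebi3 were too dim to be tested. Osm read 3.63, 2.80 and 3.19 in knockout and 3.13, 2.80 and 3.01 in wildtype. Ctf1, cardiotrophin, was above every background probeset in all arrays and differed by -0.17, and Cntf, the ciliary neurotrophic factor, differed by 0.44 but exceeded every background probeset in 1 of 6 arrays. Of 5 other receptor chains listed, 4 had a named probeset and 3 were tested. Il6r, the binding chain for IL-6, was close to background. It read 5.20, 5.56 and 6.48 in knockout 28, 27 and 52, against 4.27, 4.18 and 5.40 in wildtype 34, 45 and 37, and exceeded every background probeset of its array in only 2 of the 6. Its difference was 1.13 (SE 0.46, limma adjusted p = 0.999), and the groups overlapped. Il11ra1, the binding chain for IL-11, was measured above background throughout and differed by -0.33, and Cntfr, within background, by -0.26.

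Of 14 JAK kinases, STAT factors and brakes listed, 13 were tested, of which 9 had a higher mean in knockout and 4 a lower one, with a median difference of 0.35 beside 0.037 over all genes. Jak2, a kinase of the gp130 complex, had the largest difference upward. It read 11.24, 11.94 and 12.36 in knockout 28, 27 and 52, against 10.29, 10.54 and 11.76 in wildtype 34, 45 and 37, with a difference of 0.98 (SE 0.47, limma adjusted p = 0.999). Ptpn6, a phosphatase best known from blood cells, was lower in every knockout array (5.11, 4.86 and 4.84) than in every wildtype array (5.83, 5.59 and 5.52), by 0.71 in the mean, and lay near background. Stat5b was higher in every knockout array (12.31, 12.26 and 12.40) than in every wildtype array (11.77, 12.09 and 11.98), by 0.38 in the mean. Of the 13, 1 thus did not overlap in the higher and 1 in the lower direction, beside 3.36% and 2.89% of all genes tested. Jak1 differed by -0.21 and Socs2 by 0.37. The sheddases Adam10 and Adam17, which can release the IL-6 receptor from the cell surface, differed by 0.45 and 0.31. None of these differences passed the test.

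Genes known to respond to STAT3 had higher means in knockout for 12 of 14, with a median difference of 0.41 beside 0.037 over all genes, and 0 of the 14 were called. Pim1, a survival kinase, read 12.05, 12.13 and 12.91 in knockout 28, 27 and 52, against 10.53, 10.50 and 13.37 in wildtype 34, 45 and 37. Its relative Pim3 read 11.93, 11.71 and 12.61 in knockout, against 9.95, 11.32 and 12.51 in wildtype animals. Like Socs3, Pim1 was low in both wildtype females and highest in the wildtype male. Of the 14 genes, 11 had their lowest value in wildtype 34 or 45 and 10 their highest in a male. Of the 13 JAK kinases, STAT factors and brakes tested, 8 and 7 did so. For the 9 blood endothelial markers these counts were 6 and 4, and for the 4 keratinocyte markers 0 and 0. The shares over all genes were not counted. The mean of the STAT3-responsive list was 11.39, 11.77 and 12.12 in knockout, against 10.84, 10.96 and 12.20 in wildtype animals, so the groups overlapped. Serpina3n, an acute-phase protease inhibitor, had a difference of -0.047 between genotypes, while its levels were 14.12, 16.94 and 19.09 in knockout and 14.52, 16.88 and 18.89 in wildtype animals. Junb and Mcl1 differed by 0.12 and 0.66 between genotypes.

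Tissue digestion can induce Il6 and Socs3 along with immediate early genes, and 11 of 12 such genes listed were read beside them. All 11 had a higher mean in knockout, and 0 were called. Egr1, Dusp1 and Hspa8 lay within 0.5 of the maximum of every array, where a difference can be hidden. The median difference was 0.44 over the other 8 genes, an alternative chosen after seeing the data, and 0.07 over all 11, beside 0.037 over all genes tested. Their mean level was 16.97, 16.58 and 16.71 in knockout 28, 27 and 52, against 16.25, 16.25 and 16.81 in wildtype 34, 45 and 37. It was thus lowest in both wildtype females, as Socs3 was, while Il6 was low in wildtype 34 but not in wildtype 45. Nr4a1 and Ier2 had the largest differences, 0.78 and 0.79, and Fosb also differed by 0.78. Of the 11, 1 did not overlap between genotypes, Fosb, higher in knockout, beside 3.36% of all genes tested. The part of digestion in the values of Il6 and Socs3 was not tested.

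**Figure D5:**
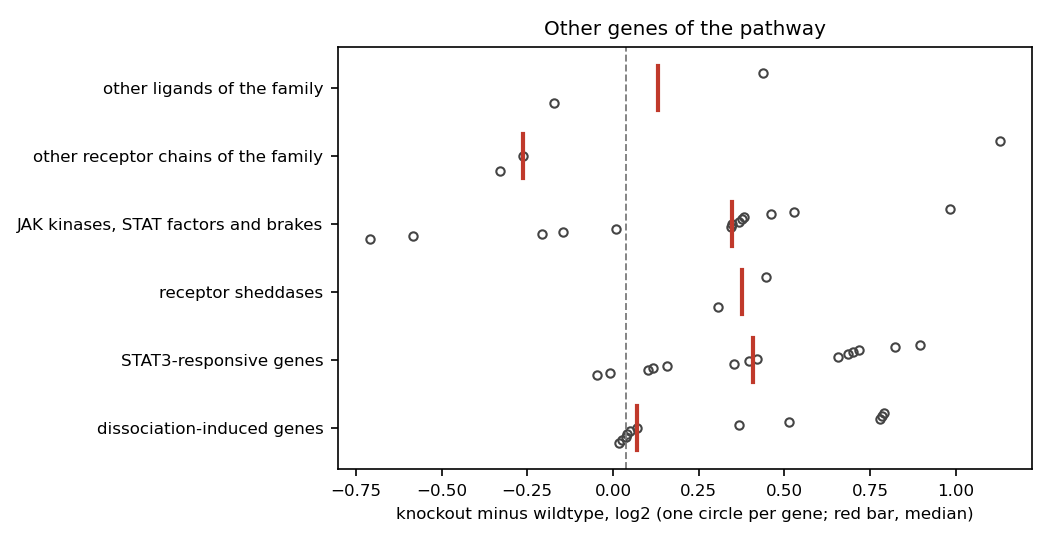
Log2 difference of knockout minus wildtype (horizontal axis) for the tested genes of 6 lists (circles), with the median of each list (red bar) and the median over all genes tested (dashed line, 0.037). The STAT3-responsive genes have a median of 0.41 and the dissociation-induced genes one of 0.07, or 0.44 without the 3 genes within 0.5 of the maximum of every array; 0 of the genes shown were called.

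The genes most like Il6 and Socs3 over the 6 arrays were found by the root mean square difference of log2 values centred on each gene's mean. For Il6 they were Sfxn4, Or8g34b, Alg1, Rabgef1 and Enpp4, at 0.28 to 0.37 among 5780 genes compared. The first 3 of these had values near background. For Socs3 they were Zfp513, Nsun5, C8h11orf54, Dtx3l and Vps45, at 0.21 to 0.26 among 6357 genes. Of the family, 3 genes had enough spread to be compared with Socs3. Osmr ranked 463rd and Stat3 1241st in likeness to Socs3, and Il6 ranked 3351st, with a root mean square difference of 0.87. In likeness to Il6, Osmr ranked 290th, Stat3 492nd and Socs3 1405th.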

How the data were processed

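Biotin-labelled RNA of sorted skin endothelial cells was measured on Affymetrix arrays, 1 for each of 6 rats. The authors deposited log2 values per probeset. RMA and Affymetrix Expression Console are named in the submitters' processing notes, without versions. No header states the scale. The values were read as log2 because of the RMA entry, but the maximum of 19.93 is unusually high for log2 array intensities. If the scale is another, the printed differences are not log2 fold changes. The values were used as deposited.

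The table held 24834 probesets, of which 1646 are controls, 15049 carry 1 gene symbol in the platform annotation and 8139 are unnamed here. For the 10 genes with over 1 probeset the brightest was kept. Dim genes, below the 25th percentile of probeset means (3.52), were not tested. Genotypes were compared with limma 3.58.1 in R 4.3.3 (lmFit, eBayes, genotype alone, two-sided, Benjamini-Hochberg over the 11515 genes tested, threshold 0.05). Sex was tested with genotype in the model, and the interaction with both. A permutation of 3 against 3 arrays reaches no p below 0.1, and none was run. Alternatives were other filters and normalizations, covariates (sex, spike-in signal, keratinocyte markers), females only, other variance models and leaving out each array.

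The text names all members, Il33, every gene called, from each list of the pathway the 3 of highest mean and the 2 of largest difference, and for Il6 and Socs3 the 5 nearest genes with a curated symbol and an SD of at least 0.5 times its own. Osm and Ebi3 are named as untested, and Fosb for its lack of overlap, after its values were seen. The members, lists and tests were chosen with earlier results of these data known. The scripts were tested on simulated data. Promoter sequences are RefSeq's for GRCr8.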

Additional observations from a re-analysis of the deposited data

Results flagged for a closer look

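Socs3 was singled out because its genotype difference had opposite directions in the sexes with no overlap between the genotypes in either. With 1 male in each genotype, the males cannot overlap unless their values are equal. In females only, 3904 of the 11515 genes tested did not overlap. The male knockout array (15.04) was below the male wildtype array (15.97), while both female knockout arrays (15.04 and 14.26) were above both female wildtype arrays (13.54 and 13.95). The interaction, male minus female difference of knockout minus wildtype, was -1.84 (SE 0.78, limma adjusted p = 0.999 over all genes), so it did not pass. Each male value is 1 animal, and both males had low spike-in signal. Il6st and Lifr also had means of opposite sign in the sexes, but their female knockout and wildtype arrays overlapped.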

How the results depend on the processing

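No gene of the family was called between genotypes under any of the 18 alternatives. Il6, Osmr and Stat3 were higher in knockout under all 18, over ranges of 0.22 to 1.32, 0.55 to 1.25 and 0.61 to 0.98, with adjusted p-values of at least 0.501, and Il11 was lower under the 17 in which it was tested. The call of Il33, the only gene called, was lost (0 genes called) without the filter on dim genes, with the filter at the 50th percentile, in females only and with the unmoderated statistic, and the count was 0 to 1 on leaving out each array, with 0 without any array but wildtype 34. With each array centred on its median, the genotypes overlapped for Osmr. Differences near 0 changed sign. Lifr was -0.073 after quantile normalization, -0.053 with the spike-in block, -0.18 with the keratinocyte covariate, -0.032 with array weights, and -0.30 to 0.24 over the leave-outs. Il6st was 0.0067 after median centring, 0.033 with array weights, and -0.31 to 0.25 over the leave-outs. Socs3 was -0.013 with the spike-in block, -0.18 with the keratinocyte covariate, and -0.18 to 1.03 over the leave-outs. Between the sexes Il6 was 0.09 after centring, 0.25 with the spike-in block and -0.62 to 0.60 over the leave-outs. Il11 was 0.07 and Stat3 -0.13 after quantile normalization, Stat3 -0.03 to 0.65 and Socs3 0.39 to 2.22 over the leave-outs. The number of genes called between the sexes was 29 after centring, and 2 to 66 over the leave-outs, with 66 without knockout 27. The interaction called 0 genes under its 4 alternatives, chosen after seeing the data. The causes were not tested. The labels name no pairs of animals, and no paired analysis was run. Lif and Il11 lay below background, so a change in either could not be measured.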
